A study of Mus musculus with 8 samples.

Results

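The genes described here are those of the proteins that repackage the DNA of the mouse spermatid: 3 testis linker histones (H1f6, H1f7 and H1f9), 2 testis core histones (H2ac1 and H2bc1), 2 transition proteins (Tnp1 and Tnp2) and 3 genes named protamines (Prm1, Prm2 and Prm3). They were chosen by gene name, from what their products do, by a rule that used no measured value but was set with earlier results of these data known. Of these 10 genes, 8 are among the 17127 genes of the table, and H2ac1 and H2bc1 are not analysed here. RNA of whole testes was sequenced from 4 wild-type mice and from 4 mice homozygous for a mutation of Iqch (Iqch-/-). The aim was to ask which transcripts differ in the mutant testis. Iqch codes for a protein with an IQ motif, which binds calmodulin. The study excluded 1 mutant, which it considered an outlier, after normalization. The 3 other mutants are analysed here, so the spread among mutants is that of the 3 kept. All mice were 4 months old and each library came from 1 mouse. The mutation was a small frameshift deletion in a coding exon, made with CRISPR-Cas9 in B6CBAF1 zygotes, and it is present in every cell of the animal. The study shows its sequencing as that of the mutant line it calls mu7, while the labels name no line, and the controls are given as wild type with no word on shared litters.

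In the spermatid, the nucleosomes that package DNA in other cells are largely taken apart. Testis variants of the histones are built into chromatin in spermatocytes and round spermatids, transition proteins take the place of histones in elongating spermatids, and protamines, small arginine-rich proteins, then take the place of the transition proteins and pack the DNA of the sperm head tightly. The mRNAs of transition proteins and protamines are made in round spermatids, stored in a silent state and translated days later. Whole-testis RNA holds all stages at once together with Sertoli, Leydig and other somatic cells, so fewer cells of a stage and less RNA per cell cannot be told apart in these values.

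The values are CPM, in which a gene's reads are scaled to a library total of 1000000, and the libraries held between 32064384 and 37551057 reads on the genes of the table. Iqch stood at 193 to 217 CPM in the wild-type mice and at 64.8 to 69.2 CPM in the mutants (log2 fold change -1.63). Of 17126 genes tested with limma on log2(CPM + 0.1), 14.2% were lower and 36.3% higher in the mutant at a false discovery rate (FDR) under 0.01, and their median log2 fold change was 0.12. Size factors by the median of ratios bring that median to -0.01, and with them 25.1% were lower and 27.0% higher. Differences are given as mutant minus wild type, on the log2(CPM + 0.1) scale unless stated otherwise.

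In the wild-type testis, 4 of the 8 genes were among the highest of all genes by CPM, which is not corrected for length. Prm2 ranked 1 by CPM in each of the 4 wild-type libraries, Prm1 ranked 2 or 3, Tnp2 ranked 2 to 4 and Tnp1 ranked 6 or 7. H1f7 ranked 118 to 155 and H1f9 ranked 156 to 256, while Prm3 ranked 4168 to 4907 and H1f6 ranked 16077 to 16698 of the 17127 genes. The study kept only genes above a read minimum, so these ranks are among kept genes. In the mutants Prm2 ranked 2 in all 3 libraries, Prm1 ranked 4 to 6, Tnp2 ranked 5 to 7 and Tnp1 ranked 10 to 14. Prm3 ranked 6985 to 7460 there.

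Levels of different genes were compared per kilobase of the canonical transcript, since a longer transcript gives more reads. These transcripts are short, from 410 bases in Prm3 to 1308 bases in H1f7. On that scale Prm1 was at 10598 ± 426 (SD, n = 4) CPM per kb in wild-type mice and Prm2 at 9784 ± 630, and the libraries of these neighbours in the order overlapped. Tnp2 at 7594 ± 451 and Tnp1 at 7150 ± 192 CPM per kb also overlapped. The order then went through H1f9 (675 ± 70.3), H1f7 (535 ± 31.3), Prm3 (119 ± 11.4) and H1f6 (2.39 ± 0.334 CPM per kb), with no overlap between neighbours after Tnp1.

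The genes lie at 5 places in the genome (GRCm39, GENCODE release M39). Prm1 (ENSMUSG00000022501, chr16:10614186-10623703), Prm2 (ENSMUSG00000038015, chr16:10609236-10614045), Prm3 (ENSMUSG00000050058, chr16:10608369-10608778) and Tnp2 (ENSMUSG00000043050, chr16:10605747-10606526) follow each other on the minus strand of chromosome 16. Tnp1 (ENSMUSG00000026182, chr1:73054221-73055208, minus strand) lies apart from them, as do H1f7 (ENSMUSG00000048077, chr15:98153867-98155174, minus strand), H1f9 (ENSMUSG00000038994, chr11:94858419-94859282, plus strand) and H1f6 (ENSMUSG00000036211, chr13:23879797-23880708, plus strand). The canonical transcripts of Prm1, Prm2, Tnp1 and Tnp2 have 2 exons, and those of Prm3 and the linker histones have 1.

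The sequences upstream of the transition protein and protamine genes are shown because these 5 genes were lower together in the mutant, and because several of them are known targets of CREM, a spermatid transcription factor that binds cyclic AMP response elements. Each is the 200 bases before the canonical start in GRCm39, 5′ to 3′ on the gene's own strand, with matches to 2 motifs in capitals: TGANGTCA, the cyclic AMP response element with its base at position 4 left free, and TATAA, the core of the TATA box, both searched on both strands. The motifs were chosen after the sequences had been seen, and whether CREM has a part in the changes was not tested.
Tnp1 (chr1:73055056-73055255, minus strand): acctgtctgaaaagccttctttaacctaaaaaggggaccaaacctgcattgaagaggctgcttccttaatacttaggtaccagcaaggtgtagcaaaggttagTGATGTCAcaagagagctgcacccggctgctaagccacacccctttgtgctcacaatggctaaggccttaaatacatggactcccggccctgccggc
Tnp2 (chr16:10606525-10606724, minus strand): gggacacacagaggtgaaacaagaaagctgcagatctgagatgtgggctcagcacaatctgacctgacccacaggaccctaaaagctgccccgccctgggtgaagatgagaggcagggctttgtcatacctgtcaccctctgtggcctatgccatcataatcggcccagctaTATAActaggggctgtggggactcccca
Prm1 (chr16:10614751-10614950, minus strand): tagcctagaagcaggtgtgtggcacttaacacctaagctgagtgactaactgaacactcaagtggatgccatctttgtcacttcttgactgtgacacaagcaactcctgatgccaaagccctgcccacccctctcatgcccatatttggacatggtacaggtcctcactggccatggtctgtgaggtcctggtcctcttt
Prm2 (chr16:10609976-10610175, minus strand): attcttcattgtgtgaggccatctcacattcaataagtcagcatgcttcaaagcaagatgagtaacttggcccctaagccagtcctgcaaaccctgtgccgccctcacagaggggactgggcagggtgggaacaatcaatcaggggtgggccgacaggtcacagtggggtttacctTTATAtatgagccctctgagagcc
Prm3 (chr16:10608779-10608978, minus strand): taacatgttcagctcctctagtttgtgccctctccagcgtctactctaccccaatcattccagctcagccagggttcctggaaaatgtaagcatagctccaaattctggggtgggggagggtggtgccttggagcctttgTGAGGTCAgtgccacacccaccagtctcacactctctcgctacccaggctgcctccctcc

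Tnp1 held TGATGTCA, from 97 to 90 bases before its start, and Prm3 held TGAGGTCA, from 60 to 53 bases before its start. TATAA stood in the Tnp2 sequence from 28 to 24 bases before the start, and the Prm2 sequence had its reverse complement, TTATA, from 24 to 20 bases before the start. H1f6 had TATAA from 44 to 40 bases before its start. In Prm1, H1f7 and H1f9 these letters were not found in the window. Of 13785 promoters of the same length, 5.93% held TGANGTCA or its reverse complement TGACNTCA, 11.1% held TATAA or TTATA, and 1.92% held the full palindrome TGACGTCA, which none of the 8 genes had.

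Of the 8 genes, 7 were lower in the mutant at an FDR under 0.01, 0 were higher and 1, H1f6, was not called, where 14.2% of all tested genes were lower. For the same 7 genes every mutant library lay below every wild-type library, a pattern found in 19.5% of all tested genes. The median log2 fold change was -0.59 over the 8 genes and -0.66 over the transition proteins and protamines, beside 0.12 over all genes. The 8 genes together took 1.94% to 2.07% of the reads of a wild-type library and 1.22% to 1.43% of a mutant library. Their values in every library are plotted on a log axis.

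**Figure D1:**
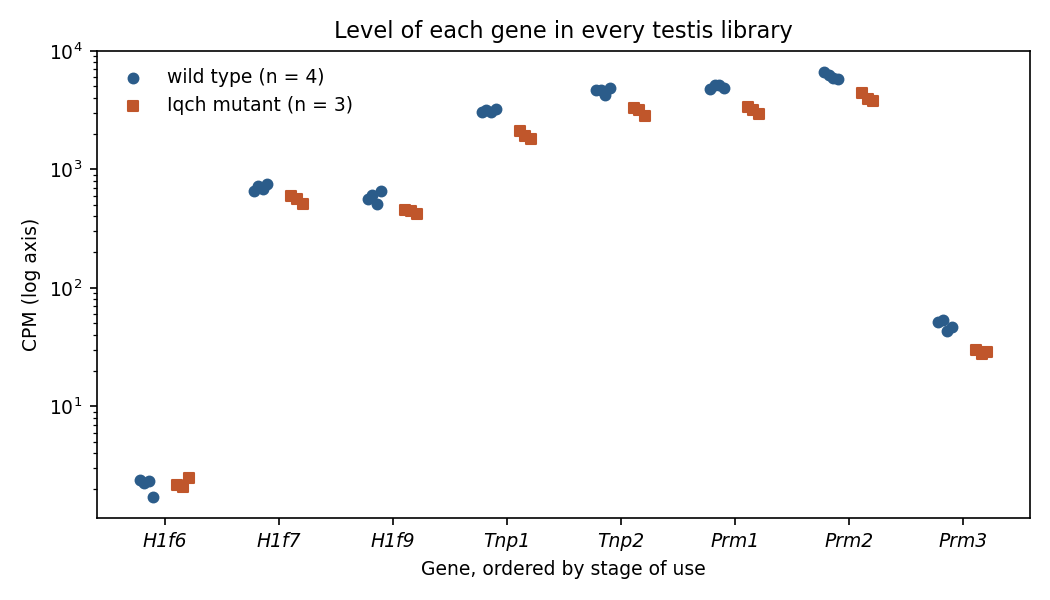
CPM (log axis) of the 8 genes in each library, ordered by the stage at which their products are used, with wild-type mice as circles (n = 4) and Iqch mutants as squares (n = 3), and 1 point per mouse. The mutants lie below the wild-type mice for every gene but H1f6, and Prm3 and H1f6 lie far below the other genes in both groups.

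The linker histones come first in the order of use. H1f6 codes for H1t, the linker histone of pachytene spermatocytes. It measured 2.39, 2.24, 2.34 and 1.73 CPM in wild-type mice 1 to 4 and 2.15, 2.09 and 2.49 CPM in mutants 1, 2 and 4. These were 65 to 81 reads per library, near the minimum for a gene to be kept and tested (2.2 CPM here). The study names the TruSeq RNA kit and does not say whether RNA was selected by its poly(A) tail. The low level of H1f6 in these libraries is thus not taken as its level in the testis. The groups overlapped, wild-type mouse 4 was the lowest of all 7, and the log2 fold change was 0.05 (SE 0.17, 95% interval -0.31 to 0.41, limma FDR 0.817). That interval holds 0 and the median of all genes, and its lower end lies close to the change of H1f7 given next. The sign of the H1f6 value was negative after size factors (-0.08) and positive with scaling by round spermatid markers (0.26), and neither was called.

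H1f7 codes for H1T2, a linker histone that sits at the acrosomal pole of the spermatid nucleus. Its values were 656, 719, 677 and 746 CPM in wild-type mice 1 to 4 and 600.1, 564 and 514 CPM in mutants 1, 2 and 4. The lowest wild-type mouse stood above the highest mutant. The mutant mean was 80.0% of the wild-type mean (559.6 ± 43.0, n = 3, against 699 ± 40.9, n = 4), with a log2 fold change of -0.32 (SE 0.06, limma FDR 0.000313).

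H1f9 codes for HILS1, a linker-like histone of elongating spermatids. Wild-type mice 1 to 4 had 561.6, 610.4, 510.0 and 650.3 CPM, and mutants 1, 2 and 4 had 456, 445 and 419.7 CPM. Wild-type mouse 3 was the nearest to the mutants and still above them. The mutant mean was 75.5% of the wild-type mean, with a log2 fold change of -0.40 (SE 0.07, limma FDR 0.000246).

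Of the transition proteins, TNP1 is a small basic protein and TNP2 a larger one that binds zinc. Tnp1 stood at 3071, 3172, 3024 and 3202 CPM in wild-type mice 1 to 4 and at 2116, 1917 and 1812 CPM in mutants 1, 2 and 4. The wild-type mice were close to each other (3117 ± 83.8, n = 4) and the mutants were spread more widely below them (1948 ± 155, n = 3). The log2 fold change was -0.68 (SE 0.05, 95% interval -0.79 to -0.57, limma FDR 1.7e-07), and the mutant mean was 62.5% of the wild-type mean. Exons of Tnp1 overlap those of Teshl on the other strand, and the strand setting of the counting is not stated in the sources used here, so reads of the 2 genes may not be told apart. Teshl was lower too, with 412 ± 28.1 CPM in wild-type mice, 244 ± 13.3 CPM in mutants and a log2 fold change of -0.76 (limma FDR 1.7e-07).

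Tnp2 had 4647, 4691, 4227 and 4875 CPM in wild-type mice 1 to 4, and 3273, 3143 and 2821 CPM in mutants 1, 2 and 4. No mutant reached the lowest wild-type mouse, which was mouse 3. The mutant mean was 66.8% of the wild-type mean and the log2 fold change -0.58 (SE 0.06, 95% interval -0.71 to -0.46, limma FDR 2.2e-06). This was the smallest change among the 5 transition protein and protamine genes, and its interval overlapped that of each of the other 4.

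Prm1 and Prm2 code for the protamines of mouse sperm, and Prm2 is made as a precursor that is cut after it has bound DNA. Prm1 was measured at 4773, 5168, 5114 and 4826 CPM in wild-type mice 1 to 4 and at 3338, 3171 and 2913 CPM in mutants 1, 2 and 4. The gap between the groups was wider than the spread within either (4970.3 ± 199.8, n = 4, and 3141 ± 214, n = 3). The log2 fold change was -0.66 (SE 0.05, 95% interval -0.77 to -0.56, limma FDR 2.1e-07) and the mutant mean 63.2% of the wild-type mean.

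Prm2, the highest gene by CPM in the wild-type testis, had 6623, 6287, 5842 and 5787 CPM in wild-type mice 1 to 4 and 4434, 3952 and 3737 CPM in mutants 1, 2 and 4. The groups did not overlap, and the lowest wild-type mouse, mouse 4, stood well above the highest mutant. The log2 fold change was -0.60 (SE 0.06, 95% interval -0.74 to -0.47, limma FDR 3.0e-06), and the mutant mean was 65.9% of the wild-type mean. In GENCODE the gene has 33 transcripts that cover 3130 bases of exon, of which the canonical transcript takes 627, and the CPM are per gene and do not divide them.

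Prm3 lies between Prm2 and Tnp2 and codes for an acidic protein of the spermatid cytoplasm, not for a DNA-packing protamine. It was at 51.3, 53.9, 43.4 and 46.8 CPM in wild-type mice 1 to 4, and at 29.6, 27.7 and 28.9 CPM in mutants 1, 2 and 4. The mutants lay close together and below all wild-type mice. The mutant mean was 58.8% of the wild-type mean, with a log2 fold change of -0.76 (SE 0.07, 95% interval -0.92 to -0.60, limma FDR 1.7e-06).

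The changes of the linker histones H1f7 and H1f9 were smaller than those of the transition proteins and protamines in size, though the differences between the genes were not tested. The 95% interval of H1f7, -0.45 to -0.20, lay above that of each of the 5 later genes, and the interval of H1f9, -0.55 to -0.25, overlapped some of them. Relative to the median change of all genes, H1f7 stood at -0.44, H1f9 at -0.52, Tnp2 at -0.70 and Prm2 at -0.72. On the same scale Prm1 stood at -0.78, Tnp1 at -0.80 and Prm3 at -0.88. Size factors shift all genes nearly alike, so the small move of these values under them, less than 0.01, is no added support.

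**Figure D2:**
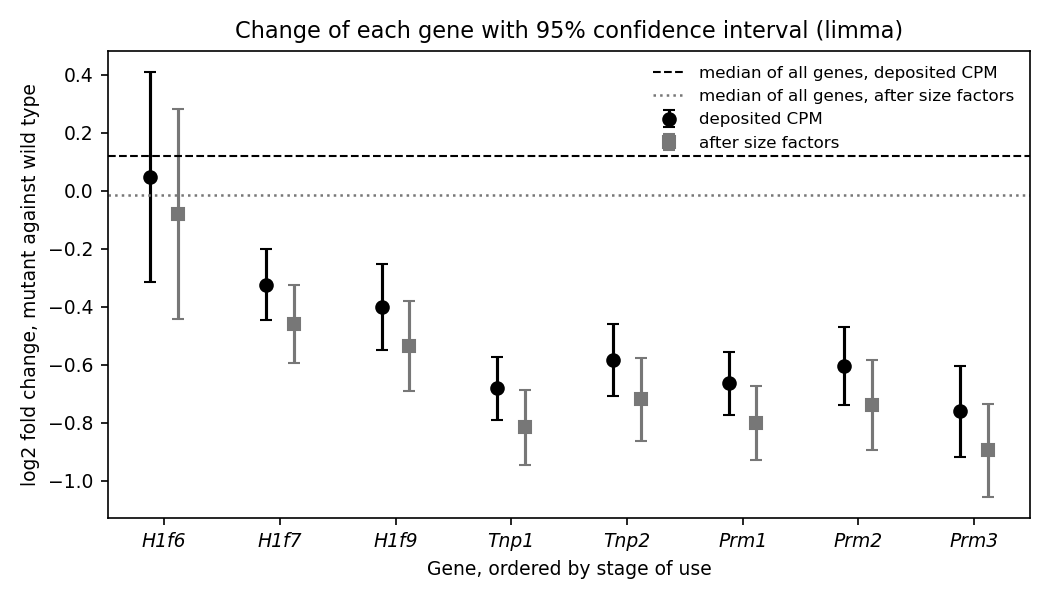
Log2 fold change of each gene, mutant against wild type, with 95% confidence intervals from limma (4 wild-type and 3 mutant libraries), for the deposited CPM (circles) and after size factors (squares); horizontal lines mark the median of all tested genes under each. The intervals of 7 genes lie below 0 and below both medians, and only the H1f6 interval crosses them.

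Scaling to round spermatid markers shifted all genes upwards, with a median log2 fold change of 0.34 over all genes and 4.13% of them called lower. When each library was divided by the geometric mean of 11 round spermatid markers, of which 7 were themselves called lower in the mutant, the 5 transition protein and protamine genes were still called lower, with log2 fold changes of -0.36 (Tnp2), -0.38 (Prm2), -0.44 (Prm1), -0.46 (Tnp1) and -0.54 (Prm3). H1f7 at -0.10 (limma FDR 0.163) and H1f9 at -0.18 (limma FDR 0.0267) were then not called. Relative to the median of all genes they stood at -0.44 and -0.52, as with the deposited CPM. Dividing each library by a factor shifts all genes nearly alike, so that distance could hardly change. Why these calls were lost was not tested.

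A ratio of 2 genes within a library does not depend on how libraries are scaled. The Prm2 to Prm1 ratio, which is watched in sperm biology because both protamines are needed in balance, was 1.39, 1.22, 1.14 and 1.199 in wild-type mice 1 to 4 and 1.33, 1.25 and 1.28 in mutants 1, 2 and 4. The groups overlapped, and the log2 difference of 0.06 was within the spread of the wild-type mice (two-sided exact permutation test over 35 splits, p = 0.457, adjusted p over the 3 ratios tested = 0.457). That difference was 0.12 without wild-type mouse 1 and 0.02 without wild-type mouse 3. The Tnp2 to Tnp1 ratio was 1.51, 1.48, 1.40 and 1.52 in wild-type mice and 1.55, 1.64 and 1.56 in mutants. Every mutant ratio was above every wild-type ratio, with a log2 difference of 0.10 (exact permutation p = 0.0571, adjusted p = 0.171). The Prm3 to Prm2 ratio ran from 0.0074 to 0.0086 in wild-type mice and from 0.0067 to 0.0077 in mutants, and these ranges overlapped (log2 difference -0.16, exact permutation p = 0.114, adjusted p = 0.171). The smallest p that this design allows is 0.0286, and none of the 3 ratios passed 0.05 before or after adjustment. A p that misses the threshold does not show that the ratios are alike.

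Set against the linker histone H1f7, the later genes were lower in every mutant. These ratios were chosen after the values above had been seen and carry no test. The Tnp1 to H1f7 ratio was 4.29 to 4.68 in wild-type mice and 3.40 to 3.53 in mutants, and the Prm1 to H1f7 ratio was 6.47 to 7.56 in wild-type mice and 5.56 to 5.66 in mutants. For Tnp2 the ranges were 6.25 to 7.09 and 5.45 to 5.57, for Prm2 7.75 to 10.1 and 7.01 to 7.39, and for Prm3 0.0627 to 0.0782 and 0.0490 to 0.0562. Of 10 such ratios to H1f7 or H1f9, 9 had no overlap between the groups, and the exception was Prm2 to H1f9. These ratios reuse the same genes, so they are not separate results, and the share among ratios of other genes was not computed. The H1f9 to H1f7 ratio overlapped between the groups.

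**Figure D3:**
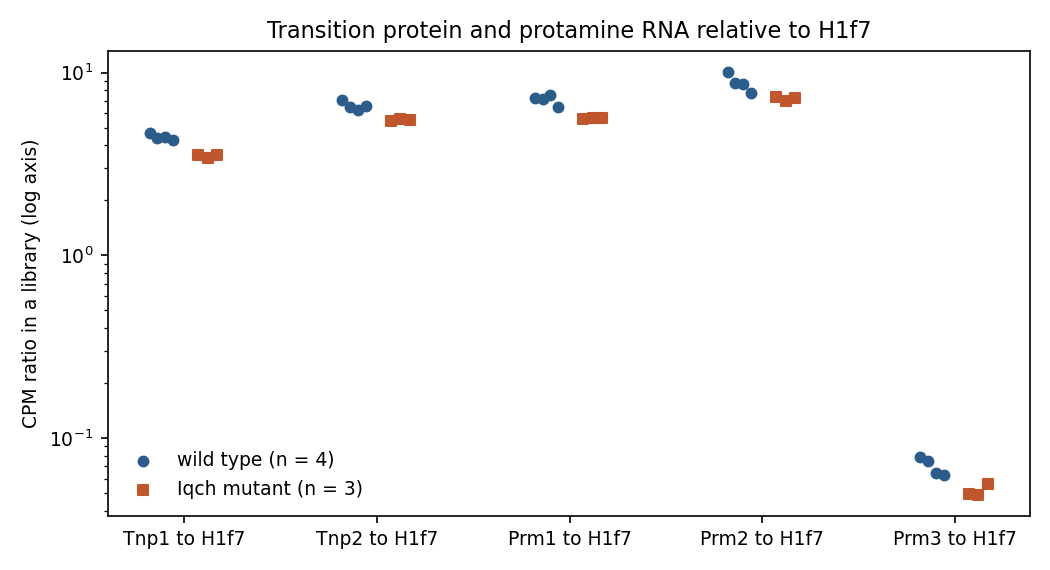
Ratio of the CPM of each transition protein or protamine gene to the CPM of H1f7 in the same library (log axis), wild-type mice as circles (n = 4) and Iqch mutants as squares (n = 3). For each of the 5 genes the mutant ratios lie below the wild-type ratios, most closely for Prm2 (7.01 to 7.39 in mutants against 7.75 to 10.1).

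Of 8 genes of the table within 50 kb of the Prm1 start, the 4 cluster genes were called lower, where 14.2% of all tested genes were. The other 4, all of low level, were not called with the deposited CPM. Prm2, Prm3 and Tnp2 start 4775, 5972 and 8226 bases downstream of the start of Prm1. Socs1, a suppressor of cytokine signalling that follows at 10875 bases, was at 5.34 ± 0.536 CPM (n = 4) in wild-type mice and 5.63 ± 0.167 CPM (n = 3) in mutants (log2 fold change 0.08, limma FDR 0.549). On the other side, the pseudogene Gm10343 had a log2 fold change of -0.02 (limma FDR 0.904) and Rmi2, a partner of the BLM helicase, of -0.16 (limma FDR 0.425). Gm46563, a long noncoding RNA on the other strand whose exons overlap those of Prm1, Prm2 and Tnp2, had 6.62 ± 0.864 CPM in wild-type mice and 5.03 ± 0.525 CPM in mutants. Its log2 fold change of -0.39 was not called with the deposited CPM (limma FDR 0.0170) and was called after size factors (limma FDR 0.00267). Every mutant library lay below every wild-type library for this gene too, a pattern found in 19.5% of all tested genes. With its level far below those of Prm1, Prm2 and Tnp2 and no strand setting stated, reads of Gm46563 may not be told apart from theirs.

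**Figure D4:**
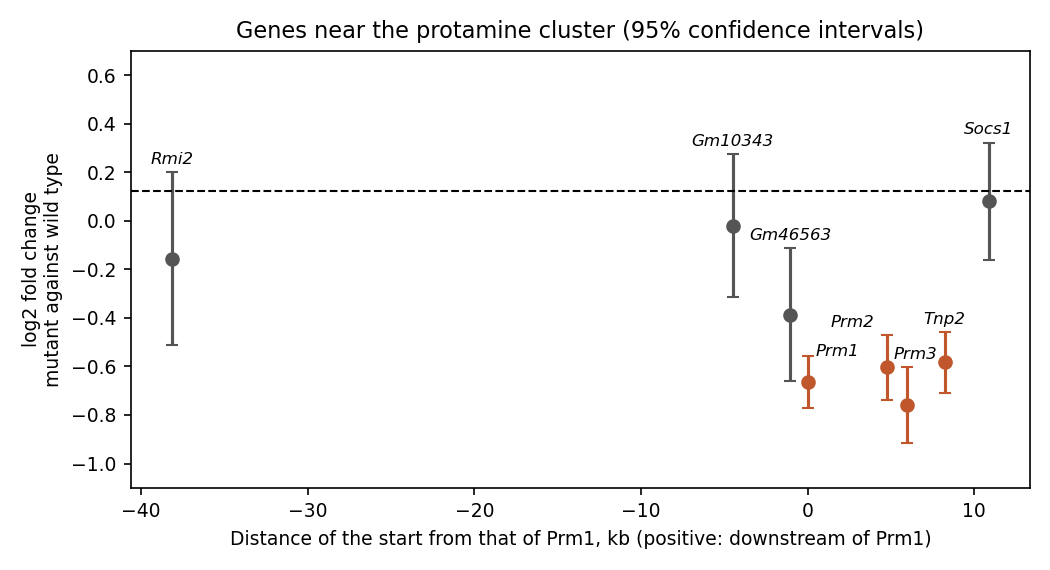
Log2 fold change with 95% confidence interval of the table's genes within 50 kb of the Prm1 start, against the distance of their start from that of Prm1 in kb (positive values are downstream of Prm1); the dashed line is the median of all genes. The 4 cluster genes lie between -0.76 and -0.58, and the intervals of Rmi2, Gm10343 and Socs1 include 0.

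Other histones made in the testis were mostly lower too. Of 13 further testis histone genes tested, from a list of 26, 10 were lower at an FDR under 0.01 and 0 were higher. By comparison, 14.2% of all tested genes were lower and 36.3% were higher. Over these 13 histone genes the log2 fold change had a median of -0.54. The rest of the list was not tested, so the count does not speak for it. H2al2a, coding for an H2A variant that opens nucleosomes for transition proteins, was at 214 ± 3.46 CPM (n = 4) in wild-type mice and 132 ± 8.04 CPM (n = 3) in mutants, a log2 fold change of -0.70 (SE 0.05, limma FDR 6.2e-08). H2al1e, 1 of the H2al1 copies, was at 7.58 and 4.79 CPM (log2 fold change -0.66, limma FDR 0.000732). The H2al1 genes are near-identical copies, so their reads could be divided among them and their single values are uncertain. The genes not called were H2al1f, H2ab3 and H3f4, with log2 fold changes of -0.42, -0.08 and -0.07, which are named here after their values were seen.

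Histone genes that somatic cells also use stood near the background as a list. Of 11 tested, from a list of 15, 5 were higher and 0 lower, where 36.3% of all genes were higher, with a median log2 fold change of 0.17 beside 0.12 for all genes. After size factors 3 were higher, where 27.0% of all genes were, and the median was 0.04. The largest changes in the list were those of linker histones. H1f2, a linker histone of somatic cells, rose from 7.15 ± 0.626 CPM (n = 4) to 22.6 ± 1.57 CPM (n = 3), a log2 fold change of 1.65 (limma FDR 2.0e-08). H1f0, a linker histone of differentiated cells, rose from 18.6 ± 0.304 to 38.5 ± 2.49 CPM (log2 fold change 1.05, limma FDR 3.2e-08).

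Genes that act in the exchange of histones for protamines were divided. Of 30 tested, 5 were lower and 7 higher, where 14.2% and 36.3% of all genes were, with a median log2 fold change of -0.03. After size factors 16 were lower and 4 higher, where 25.1% and 27.0% of all genes were. The calls thus depended on the scaling, while the sign turned for 3 of the 30 (Nutm1, Ppp1cc and Setd2, named for that reason). The largest falls were those of Tssk6, a spermatid kinase needed for histone phosphorylation and removal, at -0.45 (limma FDR 9.4e-06), and of Camk4, a kinase that acts on protamine 2, which went from 68.7 to 53.8 CPM (-0.35, limma FDR 0.00021). The largest rises were those of the ubiquitin ligases Ubr2 (log2 fold change 0.64, limma FDR 1.1e-06) and Huwe1 (0.45, limma FDR 3.0e-06). These 4 were called in the same direction after size factors.

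Of 12 genes known for the transcription of spermatid chromatin genes, 7 were lower and 1 was higher, with a median log2 fold change of -0.17. After size factors 9 were lower and 0 higher. Among all genes 14.2% were lower and 36.3% higher, and after size factors 25.1% and 27.0%. Fhl5, which codes for ACT, the coactivator of CREM, fell by 0.30 on the log2 scale (limma FDR 0.00238), and Kif17, a kinesin that moves ACT between nucleus and cytoplasm, fell by 0.28 (limma FDR 0.000256). Brwd1, a bromodomain protein, was the gene called higher (0.21, limma FDR 0.000801), and it was not called after size factors. Crem itself, named after its values were seen, had a log2 fold change of -0.16 and just missed the threshold (208 ± 9.04 CPM in wild-type mice, 186 ± 9.36 CPM in mutants, limma FDR 0.0103). The falls of these regulators on the log2 scale were smaller than the -0.58 to -0.76 of the transition protein and protamine genes, and the differences between the genes were not tested.

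Of 20 genes for the storage and later translation of spermatid mRNAs, 9 were lower and 3 higher, with a median log2 fold change of -0.13. After size factors 13 were lower and 2 higher. Among all genes 14.2% were lower and 36.3% higher, and after size factors 25.1% and 27.0%. Fxr1, an RNA-binding protein that activates translation of stored spermatid mRNAs, fell by 0.28 on the log2 scale (limma FDR 7.2e-05), and Pabpc2, a poly(A)-binding protein of the testis, fell by 0.24 (limma FDR 0.00152). Celf1 and Tia1, RNA-binding proteins of many tissues, were higher by 0.47 (limma FDR 1.6e-06) and 0.41 (limma FDR 0.000346). Ybx2, whose product holds protamine mRNA silent and which is named after its values were seen, went from 2178 to 1886 CPM (log2 fold change -0.21, limma FDR 0.000665).

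Of the germ cell markers, those of spermatids were mostly lower, like these genes, and those of spermatocytes and spermatogonia were mostly not. Of all tested genes, 14.2% were lower and 36.3% higher, and after size factors 25.1% and 27.0%. All 12 late spermatid markers were lower, with a median log2 fold change of -0.44, from Smcp (-0.68) to Spata18 (-0.34), and their summed level was 10450 to 10803 CPM in wild-type mice and 7182 to 7978 CPM in mutants. Of 11 round spermatid markers, 7 were lower, with a median of -0.21, from Spata25 (-0.43) to Tex21 (-0.06), and they summed to 1452 to 1531 CPM and 1237 to 1315 CPM. After size factors all 12 and all 11 of these markers were lower. The changes of Tnp1 and Prm1 on the log2 scale were near that of Smcp, the lowest of the 12 late spermatid markers. They thus lay below that list's median of -0.44, and the differences between the genes were not tested. Of 12 spermatocyte markers, 2 were lower and 1 higher (median -0.02, from Meiob at -0.28 to Spo11 at 0.27), and of 10 spermatogonia markers 5 were higher (median 0.30, from Sohlh1 at -0.13 to Kit at 1.505), where 36.3% of all genes were higher. After size factors 5 spermatocyte markers were lower and 0 higher, and 1 spermatogonia marker was higher.

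Markers of Sertoli cells, Leydig cells and macrophages were nearly all higher where the chromatin genes were lower. Over all tested genes 36.3% were higher, and 27.0% after size factors. All 11 Sertoli cell markers were higher (median 0.83, from Sox9 at 0.36 to Trf at 1.18), with a summed level of 1409 to 1532 CPM in wild-type mice and 2888 to 3014 CPM in mutants. Of 8 Leydig cell markers 7 were higher (median 1.64, from Star at 0.24 to Hsd3b1 at 3.21), summing to 1132 to 1345 CPM and 4709 to 4853 CPM, and all 9 macrophage markers were higher (median 1.80, from Mrc1 at 0.76 to Lyz2 at 2.34), summing to 94.8 to 105 CPM and 293 to 332 CPM. Of 5 peritubular myoid markers 2 were higher (median 0.28, from Cnn1 at -0.19 to Des at 0.61), as were 2 of 5 endothelial markers (median 0.63, from Tek at -0.29 to Kdr at 1.81). After size factors 9 Sertoli, 7 Leydig, 9 macrophage, 2 peritubular myoid and 2 endothelial markers were higher, and 1 endothelial marker was lower. The part of these shifts in the values of the transition protein and protamine genes was not tested.

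**Figure D5:**
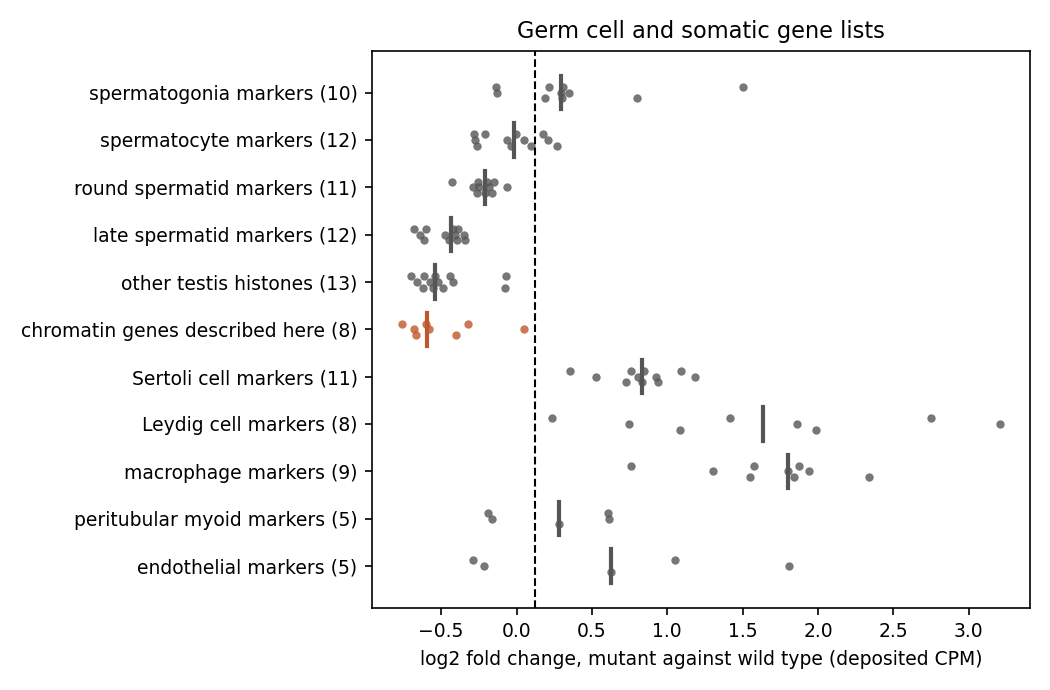
Log2 fold change (mutant against wild type, deposited CPM) of each gene of the cell type lists, of the other testis histones and of the 8 chromatin genes described here, 1 point per gene with the list's median as a vertical bar, the number of genes in parentheses and the median of all tested genes as a dashed line. The chromatin genes (median -0.59) and other testis histones (-0.54) lie to the left of the round spermatid markers (-0.21), beside the late spermatid markers (-0.44), and the Leydig and macrophage markers (1.64 and 1.80) lie farthest to the right.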

How the data were processed

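RNA of whole testes was measured in 4 wild-type and 3 Iqch mutant libraries, 1 per mouse, grouped by the labels. Of 8 samples listed, 7 were analysed (wild-type mice 1 to 4, mutants 1, 2 and 4), with mutant 3 not used here. The study excluded 1 mutant sample that it considered an outlier. The authors used Trimmomatic for trimming, Subread for mapping (GRCm39) and featureCounts for counting. They deposited CPM, which sum to 1000000 per library and so hold no between-sample factor. The annotation release and strand setting are not given in the sources used here. All values (100%) of a library were whole multiples of 1 step (tolerance 0.01), taken as 1 read. Library depths were 33424628, 34331380, 32859673 and 37551057 reads in wild-type mice and 34806129, 32064384 and 32557330 in mutants, and 1 read is 0.0266 to 0.0312 CPM.

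The 17126 genes that reached 2.2 CPM in 2 or more libraries of a group entered limma 3.58.1 (R 4.3.3), with a mean-variance trend and values as log2(CPM + 0.1), and p-values were adjusted by Benjamini-Hochberg over all of them, with calls at an FDR of 0.01. On simulated data with 200 of 16518 genes changed by 1 on the log2 scale, the fit called 200 changed and 5 unchanged genes. Those data had the same spread setting for every gene and as many rises as falls. Smaller changes and wide shifts like those of these data were not simulated, so the simulation does not vouch for the calls here. Ratios of genes within a library were tested with an exact permutation test. The genes described and the lists were chosen with earlier results of these data known. Named are the 10 genes of the group, Iqch, the 2 largest calls in each direction of each pathway list and any of its genes without overlap that changed by more than 1, the lowest and highest change of each marker list, and table genes within 50 kb of Prm1. Gene models came from GENCODE release M39 (17045 of 17127 genes, 99.5%, found). The upstream sequences were read from GRCm39, and the 13785 protein-coding genes of the table with an annotated start gave the shares of promoters with a motif. Python 3.11.15, pandas 2.3.3, NumPy 2.4.6 and matplotlib 3.10.9 were used.

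Alternatives were pseudocounts of 1 and 0.01, a minimum of 5 CPM or none, size factors by the median of ratios or a trimmed mean, library totals without the 8 genes, scaling by round spermatid markers, sample weights, a replicate block and each library left out in turn.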

Additional observations from a re-analysis of the deposited data

How the results depend on the processing

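Of 282 values recomputed under an alternative, 278 kept their side of the threshold, or stayed within 1.5 times the count. No called value changed sign. Uncalled values turned in sign under 4 alternatives for H1f6 (size factors, trimmed mean factors, and without mutant 4 or wild-type mouse 4) and under 2 for Socs1 (both factors). The count of all genes lower in the mutant was 2428 and moved to 4294 with size factors and 4514 with trimmed mean factors. It was 708 with scaling by round spermatid markers, and the counts of all genes under that scaling are not among the 282. With scaling by round spermatid markers H1f7 (-0.10) and H1f9 (-0.18) were no longer called, so 5 and not 7 of the chromatin genes were lower, where 4.13% of all genes were. The fall from 7 to 5 stayed within 1.5 times the count and is among the 278. Scaling by round spermatid markers moved the median of all genes from 0.12 to 0.34. H1f7 and H1f9 kept -0.44 and -0.52 relative to it, a distance that a factor per library can hardly change. Under the other alternatives run, 7 were lower. Tnp1 ranged from -0.83 to -0.46 and Prm1 from -0.81 to -0.44 on the log2 scale. With each library left out in turn 7 genes were lower, and 1934 to 2392 of all genes were. H1f6 was not tested at the minimum of 5 CPM. Same-numbered libraries of the groups showed little shared deviation (correlations 0.026, 0.0094 and -0.098 for numbers 1, 2 and 4). The best partners of mutants 1, 2 and 4 were wild-type mice 1, 4 and 3. The numbers were not taken as pairs, though such correlations cannot exclude pairs with a small shared effect. With a replicate block over these numbers 7 chromatin genes and 2139 of all genes were lower. The planned count tests and factors from reads were not run, because the table holds too few low values to check that 1 step is 1 read. The depth of H1f6 (65 to 81 reads) left an interval of -0.31 to 0.41.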

Other observations

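The mutant libraries differed among themselves in the chromatin genes. Mutant 1 was the highest of the 3 for 7 of the 8 genes (all but H1f6), and mutant 4 the lowest for 6 of them (H1f7, H1f9, Tnp1, Tnp2, Prm1 and Prm2). The 5 transition protein and protamine genes together took 1.32%, 1.22% and 1.13% of the reads of mutants 1, 2 and 4, and 1.82% to 1.94% in wild-type mice. The late spermatid markers summed to 7978, 7182 and 7313 CPM in mutants 1, 2 and 4. Mutant 1 was the highest there too, and mutants 2 and 4 stood in the other order. The lowest wild-type mouse was mouse 3 for H1f9, Tnp1, Tnp2 and Prm3. These orders rest on 1 library each and were not tested.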
